A study of Homo sapiens with 4 samples.

Results

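The transcripts of cyclins, cyclin-dependent kinases (CDKs), CDK inhibitors and CDC25 phosphatases were followed in HGC27 cells, a human gastric cancer line. Rows of the deposited table were taken by symbol, which covered cyclins A to L, T and Y, CDKs whose symbol ends in a number, 7 inhibitors and CDC25A, CDC25B and CDC25C, and left out CDKN1A. CDK symbols with a letter after the number, such as CDK11A and CDK11B, were not matched and were not examined. The rule found 49 of the 14431 listed genes, and CCNA1, CCNB3 and CDK15 were not among the genes listed. The siAARS1 group (n = 2 libraries) was transfected with small interfering RNA against AARS1, the cytosolic alanyl-tRNA synthetase, and the control group (n = 2 libraries) carried the label control. Both groups were grown in DMEM without glucose that was supplemented with 25 mM lactate, and the labels give 24 h of lactate while the text of the study gives another duration. The labels do not say whether the libraries of a group came from separate cultures, so the tests measure the spread between libraries, which may be technical.

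A cyclin is the regulatory subunit that switches on its CDK and directs it to substrates. Cyclins D and E drive cells through G1 into S phase by phosphorylating the retinoblastoma protein, cyclins A and B act with CDK1 and CDK2 in S phase and mitosis, and CDC25 phosphatases remove the phosphates that hold these kinases inactive. INK4 and CIP/KIP inhibitors oppose them. A further branch of the family has cyclins T, K, C, H and L and phosphorylates RNA polymerase II or associated factors. It acts in transcription and splicing, and cyclin H with CDK7 also forms the CDK-activating kinase.

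Listed genes took 30653210 to 33522573 reads per library, and 1 read was worth 0.0293 to 0.0324 CPM (reads scaled to a fixed library size). The target of the knockdown, listed as AARS, had 428 and 417 CPM in the controls against 292 and 298 CPM with siAARS1, so that 69.7% of its transcript level was left on the deposited scale. Its log2 fold change of -0.52 was -0.75 with libraries scaled by their medians and -0.30 with GC content and length corrected for (both described below), and it was called in each. Among the genes listed, markers went against an epithelial cell type. Genes that are not listed may have been left out, so their absence does not show a lack of expression. EPCAM, KRT18 and KRT19 were not among the genes listed, CDH1 was at 2.22 CPM in control and 0.867 CPM in siAARS1, and KRT8 at 25.0 and 5.85 CPM, whereas all 6 fibroblast markers examined were listed, with control means from 15.5 CPM for PDGFRB to 3704 CPM for COL3A1. Of these 6, COL1A1, COL1A2, COL3A1 and PDGFRB were lower and DCN (0.11) and LUM (0.84) were higher in siAARS1 on the deposited log2 scale. Median scaling made DCN lower (-0.12), and with GC content and length corrected for all 6 were called lower, DCN at -1.34 and LUM at -0.17. Of the leukocyte and endothelial markers, CD68 alone was listed, at 0.933 and 0.634 CPM. Their part in the results below was not tested, and the cells are called HGC27 as labelled. In bulk RNA, a change in the share of cells in a cycle phase and a change in RNA per cell cannot be told apart.

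Members of the family moved in both directions, and on the deposited scale the largest moves were upward. With GC content and length corrected for, as described below, the largest move was downward (-1.21 for CDKN2B). All 49 members were tested with limma on log2(CPM + 1), adjusted over the 14199 genes whose mean reached 1 CPM in either group. In siAARS1, 20 members rose, 20 fell and 9 did not pass an adjusted p of 0.05. Of those that fell, CDKN1C passed the filter on low values only through its control level, and 19 of 48 fell without it. Of all genes tested, 70.7% passed, 32.6% as higher and 38% as lower, and the count of 40 called members is to be read against that share. The median log2 fold change of the members was -0.05, as over all genes (-0.05). Dividing each library by its median CPM in place of its total moved the median of all genes to -0.26 and that of the members to -0.27, with 15 members higher and 29 lower (23.8% and 56.3% of all genes). Their changes ran from -0.94 for CDKN2D to 1.86 for CCNT2. Both siAARS1 libraries lay outside the range of both controls for 47 members, against 85.1% of all genes, and only CDK3 and CDK10 overlapped. A change of at least 2-fold with an adjusted p under 0.05 was seen upward for 5 members, CCNT2, CDK6, CCNE2, CCNT1 and CCNL1 (10.6% of all genes), and downward for 0. Over all genes tested, 1509 rose and 232 fell by this measure, so such changes were mostly upward in the whole table.

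**Figure D1:**
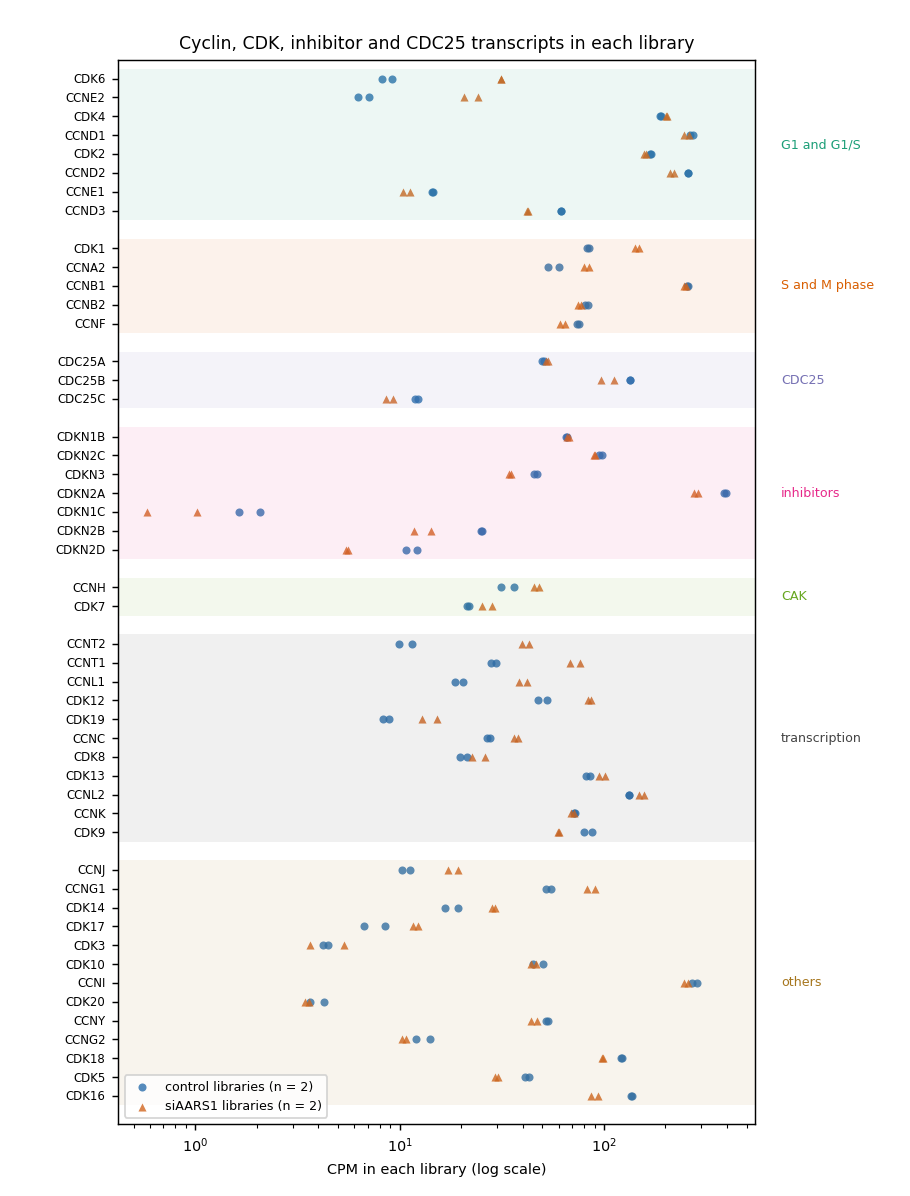
CPM of the 49 members in each library (log axis), with circles for the 2 control libraries and triangles for the 2 siAARS1 libraries, grouped by role. The libraries of a group lie close together for most members, and CDK6, CCNE2, CCNT1 and CCNT2 show the widest gaps between groups.

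The direction of the change followed the base composition of the transcripts. The members that rose had a median GC content of 41.6% and those that fell one of 56.4%. Of the 22 members below 45% GC, 16 rose, 5 fell and 1 was not called, and of the 27 at or above 45%, 4 rose, 15 fell and 8 were not called. The same split was present in the whole table, where 71.2% of genes below 45% GC rose and 7.84% fell, and 12.9% at or above it rose and 54.1% fell. The rank correlation of change with GC content was -0.74 across the 49 members and -0.65 across 13819 genes, and with transcript length it was 0.37 and 0.30. These are descriptions over genes measured in the same 4 libraries. Each change was therefore computed a second time with the smooth trend of each library against GC content and length taken out, which removes true changes that run with these properties too. After this correction 14 members were higher, 19 lower and 16 not called (66% of all genes were called, 32.8% as higher and 33.3% as lower), and the range narrowed to -1.21 (CDKN2B) to 0.71 (CCNL1). Both values are given below wherever they differ in call, in direction or by more than 1.5 times. Changes below are differences of log2(CPM + 1), siAARS1 minus control, and a corrected value is one with GC content and length taken out.

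**Figure D2:**
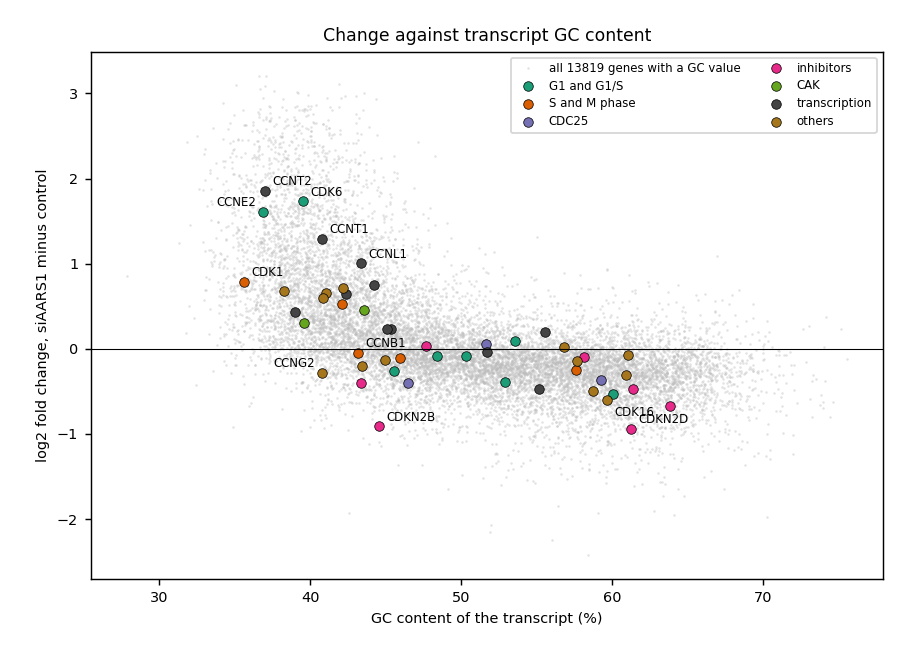
Log2 fold change (siAARS1 minus control) against the GC content of the transcript in percent, for the members (coloured by role) and all 13819 genes with a GC value (grey). Members lie along the trend of all genes, high at low GC content, with CDKN2B and CCNG2 below it.

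Among the G1 cyclins and kinases, CDK6 and CCNE2 rose more than 3-fold while their paralogs CDK4 and CCNE1 did not. Of the 8 genes, 3 rose, 3 fell and 2 were not called, near the shares of all genes (32.6% rose and 38% fell). CDK6, a kinase partner of the D cyclins (chromosome 7, 92604921 to 92836594, GRCh38), had 9.21 and 8.23 CPM without and 31.2 and 31.2 CPM with the knockdown. The siAARS1 level was 3.58 times that of control, with a log2 fold change of 1.73 (SE 0.0836, adjusted p = 5.16e-14). CCNE2, which encodes cyclin E2, a partner of CDK2 at the entry into S phase, had 6.25 and 7.12 CPM in the control pair and 20.7 and 24.2 CPM in the siAARS1 pair, a log2 fold change of 1.61 (SE 0.0998, adjusted p = 4.21e-12). Both groups were well apart for either gene. The GC content and length correction left 0.42 for CDK6 and 0.63 for CCNE2, both still past the threshold. Exons of other genes cover 37.1% of the exon bases of CCNE2 on the opposite strand, and no use of strand is stated for the counts.

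CDK4, the other D cyclin kinase, was the more abundant of the pair at 91.3 CPM per kb of transcript in control, against 0.751 CPM per kb for CDK6. It had 191 and 188 CPM in the controls against 204 and 202 CPM with siAARS1. The log2 fold change of 0.10 (adjusted p = 0.0260) was small, became -0.13 after median scaling, and lost its call without control replicate 1 (0.11), control replicate 2 (0.09) or siAARS1 replicate 1 (0.09). Its corrected value was 0.35. Exons of TSPAN31 cover 43.2% of the exon bases of CDK4 on the opposite strand.

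CCNE1, which encodes cyclin E1, moved the other way to CCNE2. It had 14.3 and 14.6 CPM without and 10.4 and 11.2 CPM with the knockdown. It fell by 0.39 on the log2 scale (adjusted p = 0.000731), and its corrected value of -0.16 was not past the threshold. CDK2, the kinase of both E cyclins, had 169 and 168 CPM in the control pair and 161 and 157 CPM in the siAARS1 pair, a log2 difference of -0.08 (95% interval -0.16 to 0.00, adjusted p = 0.0699) that did not pass and was an uncalled 0.02 after the correction. Quantile normalization called it lower (-0.10).

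The 3 D cyclins, which couple growth signals to CDK4 and CDK6, had falling or uncalled values. CCND1 had 273 and 264 CPM in the controls against 260.3 and 248 CPM with siAARS1. The groups did not overlap, but the log2 difference of -0.08 (adjusted p = 0.0695) did not pass, and it passed without siAARS1 replicate 1 (-0.12) and after quantile normalization (-0.08). Its corrected value was an uncalled 0.04. CCND2 had 259 and 257 CPM without and 211 and 219 CPM with the knockdown. It fell by 0.26 (adjusted p = 3.00e-06), and the corrected value was -0.56. CCND3 had 61.6 and 61.9 CPM in the control pair and 42.7 and 42.0 CPM in the siAARS1 pair, and it fell by 0.53 (adjusted p = 8.45e-09), with a corrected value of -0.20. CCND3 thus had the largest fall of the 3 before the correction and CCND2 after it.

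**Figure D3:**
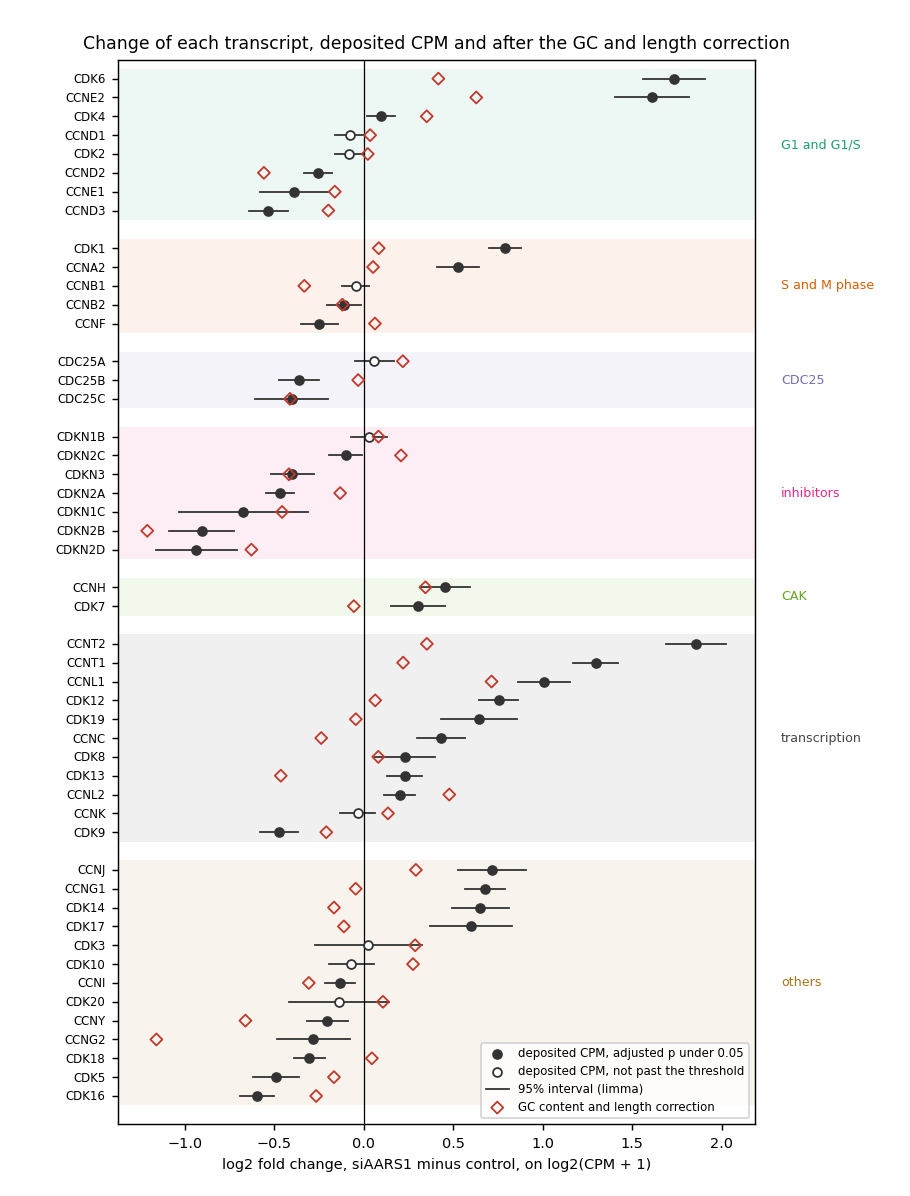
Log2 fold change of the 49 members by role, on log2(CPM + 1), from the deposited CPM (circles, filled where the adjusted p was under 0.05, with 95% limma intervals) and with GC content and length corrected for (diamonds). The correction makes the largest rises smaller and brings some others close to 0, as for CDK1 and CDK12. It leaves CCNL1 and CCNE2 as the highest and CDKN2B and CCNG2 as the lowest.

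In the S and M phase group, CDK1 and CCNA2 rose while the B cyclin genes differed by -0.05 and -0.11. CDK1, the kinase of mitotic entry (chromosome 10, 60778331 to 60794852), had 82.4 and 84.3 CPM in the controls against 142 and 148 CPM with siAARS1. The level was 1.74 times that of control, with a log2 fold change of 0.79 (SE 0.0432, adjusted p = 4.49e-13). CDK1 had the lowest GC content of the members (35.6%), and its corrected value was 0.08 (adjusted p = 0.0454). CCNA2, which encodes cyclin A2 of S phase and early mitosis, had 53.4 and 60.3 CPM without and 79.7 and 84.7 CPM with the knockdown. It rose by 0.53 (adjusted p = 3.53e-08), and the corrected value of 0.05 was not past the threshold.

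CCNB1, which encodes cyclin B1, the main mitotic partner of CDK1, had 258 and 254 CPM in the control pair and 245 and 251 CPM in the siAARS1 pair. The difference of -0.05 (95% interval -0.12 to 0.03, adjusted p = 0.274) did not pass the threshold, whereas the corrected value of -0.33 did. CCNB2, the gene of cyclin B2, had 83.3 and 80.8 CPM in the controls against 77.0 and 74.8 CPM with siAARS1, a change of -0.11 (adjusted p = 0.0389) that was not called without control replicate 1 (-0.09), control replicate 2 (-0.13) or siAARS1 replicate 2 (-0.09). CCNF encodes cyclin F, which serves a ubiquitin ligase rather than a CDK. It had 73.5 and 75.9 CPM without and 64.4 and 60.9 CPM with the knockdown, and fell by 0.25 (adjusted p = 0.000132), against an uncalled 0.06 after the correction.

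Promoters of G2 and M phase genes are known for a short element, the cell cycle genes homology region, that is bound by the MuvB core of the DREAM and MYB complexes, often downstream of CCAAT boxes. Since CDK1 and CCNA2 rose and CCNB1, CCNB2 and CDC25C did not, 30 bases around such a hexamer are shown for these 5 genes, chosen after their values were seen, from RefSeq promoter windows on GRCh38.p14. Of all 35116 windows, counting both strands, the hexamer TTTGAA was found in 15.2%. The variant CTTGAA was found in 11.2% and the palindrome TTTAAA in 12.2%. The hexamer shown is in capitals and lies on the gene's own strand before a RefSeq start. It was taken only where a CCAAT box, on either strand, began within a set distance upstream. The nearest such box began 33 bases upstream in CDK1, 28 in CCNA2, 25 in CCNB1 and CCNB2 and 55 in CDC25C. A gene can have several RefSeq starts, and all 5 stretches lie inside the gene bounds of GENCODE, the source of the coordinates given for CDK1 above, so the RefSeq start used here lies downstream of the outer GENCODE start. For CCNB2, which had a further TTTAAA in its window, the hexamer nearest to the start is given.
CDK1 (chr10:60778453-60778482, plus strand): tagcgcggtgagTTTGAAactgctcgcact
CCNA2 (chr4:121823894-121823923, minus strand): agtcgcgggataCTTGAActgcaagaacag
CCNB1 (chr5:69167108-69167137, plus strand): agcagtgcggggTTTAAAtctgaggctagg
CCNB2 (chr15:59105105-59105134, plus strand): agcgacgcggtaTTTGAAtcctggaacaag
CDC25C (chr5:138331817-138331846, minus strand): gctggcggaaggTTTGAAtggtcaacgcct
The hexamer began 13 bases before the RefSeq start in CDK1, 28 in CCNA2, 30 in CCNB1, 29 in CCNB2 and 30 in CDC25C. CDK1, CCNB2 and CDC25C shared TTTGAA although their changes differed, at 0.79, -0.11 and -0.40. Any of the hexamers was found in 31.2% of all windows, and a CCAAT box in 34.6%. Windows of the members, available for 44 of the 49, held a hexamer in 21 of 69 cases (30.4%). All of these shares count a motif on either strand anywhere in a window. None of them gives how common a hexamer downstream of a CCAAT box is. A match is a description of these letters only.

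CDC25 phosphatases, which activate CDKs, did not rise on the deposited scale. Of the 3 genes, 2 fell and 1 was not called (38% of all genes fell). CDC25A, which acts at the entry into S phase, had 51.0 and 49.9 CPM in the control pair and 52.1 and 53.0 CPM in the siAARS1 pair, a difference of 0.06 (adjusted p = 0.333) that became -0.17 after median scaling and 0.22 once GC content and length were corrected for, past the threshold in both. CDC25B had 134 and 135 CPM in the controls against 113 and 97 CPM with siAARS1. It fell by 0.36 (adjusted p = 3.35e-06), with a corrected value of -0.03 that was not called. CDC25C had 12.3 and 11.9 CPM without and 9.26 and 8.57 CPM with the knockdown. Its change of -0.40 (adjusted p = 0.000988) was -0.41 after the correction, so that it was the member of the trio least altered by it.

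The CDK inhibitors were lower or uncalled. Of 7 genes, 6 fell and 1 was not called (38% of all genes fell), but CDKN1C passed the filter only through its control level. Without it 5 of 6 fell, with a median log2 fold change of -0.43 (all genes -0.05). With GC content and length corrected for, 4 of these 6 were lower (33.3% of all genes), 1 was higher and 1 was not called, with a median of -0.28. CDKN2B encodes p15 INK4B, an inhibitor of CDK4 and CDK6 (chromosome 9, 22002903 to 22009363). It had 25.0 and 25.4 CPM in the control pair and 11.8 and 14.3 CPM in the siAARS1 pair, 0.517 times the control level. The log2 fold change was -0.91 (SE 0.0877, adjusted p = 7.36e-09). With the correction it was lower still, at -1.21 (adjusted p = 6.89e-10). The GC content of its transcript was 44.6%.

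CDKN2A, its neighbour on chromosome 9 (21967753 to 21995301), encodes both p16 INK4A and p14 ARF, which a value per gene does not separate. It was the most abundant inhibitor at 305 CPM per kb in control, with 385 and 397 CPM in the controls against 288 and 276 CPM with siAARS1. It fell by 0.47 (adjusted p = 2.73e-10), with a corrected value of -0.13. CDKN2D, which encodes p19 INK4D, had 12.2 and 10.7 CPM without and 5.44 and 5.57 CPM with the knockdown. This change of -0.94 (SE 0.109, adjusted p = 1.22e-07) was the largest downward change among the members on log2(CPM + 1), and it was -0.63 after the correction. With a pseudocount of 0.1 it was -1.04, and CDKN1C was lower at -1.15. CDKN2C, the gene of p18 INK4C, had 97.8 and 94.4 CPM in the control pair and 89.1 and 89.9 CPM in the siAARS1 pair. Its change of -0.10 (adjusted p = 0.0483) lost the call without any 1 of the 4 libraries (-0.08 to -0.13) and turned to 0.21 after the correction.

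The CIP/KIP genes, whose proteins bind CDK2 complexes, differed. CDKN1B, which encodes p27, had 65.1 and 65.7 CPM in the controls against 66.1 and 67.4 CPM with siAARS1, an uncalled 0.03 (95% interval -0.07 to 0.13, adjusted p = 0.611) that became -0.20 and past the threshold after median scaling and was an uncalled 0.08 after the correction. CDKN1C, which encodes p57, had 1.64 and 2.08 CPM without and 0.583 and 1.02 CPM with the knockdown, from 56, 66, 18 and 34 reads. It fell by 0.67 (SE 0.173, adjusted p = 0.00162), a value that the pseudocount of 1 makes smaller at such levels. It was -1.15 with a pseudocount of 0.1, -1.16 in edgeR with TMM and -1.15 in DESeq2, and -0.46 after the correction. CDKN3, a phosphatase that acts on CDK2 and CDK1, had 45.3 and 47.0 CPM in the control pair and 35.1 and 34.3 CPM in the siAARS1 pair, and it fell by 0.40 (adjusted p = 2.64e-06), with a corrected value of -0.42. CDKN1A (p21), the CIP/KIP gene that the symbol rule left out, had 52.1 and 53.2 CPM in the controls against 22.9 and 22.1 CPM with siAARS1, a change of -1.19 (adjusted p = 1.34e-13) with a corrected value of -0.89.

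Cyclins and CDKs of transcription mostly rose, with 9 of 11 higher, 1 lower and 1 not called, and a median log2 fold change of 0.43. Of all genes 32.6% rose, with 71.2% of those below 45% GC and 12.9% of those at or above it. The 11 genes lay on both sides of this value, from 37.0% GC for CCNT2 to 55.6% for CCNL2. After median scaling 6 were higher and 2 lower (23.8% and 56.3% of all genes). The correction reduced this to 5 higher, 3 lower and 3 not called, with a median of 0.08. Of all genes, 32.8% were higher and 33.3% lower after it. The lead was taken by the T cyclins, subunits of the elongation factor P-TEFb. CCNT2 (chromosome 2, 134918235 to 134959342) had 9.91 and 11.5 CPM without and 39.9 and 42.8 CPM with the knockdown, 3.86 times the control level. The log2 fold change of 1.86 (SE 0.0808, adjusted p = 8.26e-15) was the largest among all members and was 0.35 after the correction. CCNT1 (chromosome 12, 48688458 to 48716998) had 27.9 and 29.8 CPM in the control pair and 68.5 and 76.1 CPM in the siAARS1 pair. It rose by 1.3 (SE 0.0606, adjusted p = 2.96e-14), with a corrected value of 0.22. Their kinase CDK9 was the 1 gene of this group that fell, from 83.8 ± 5.03 to 60.01 ± 0.292 CPM (SD, n = 2), a change of -0.47 (adjusted p = 3.46e-08) and of -0.21 when corrected.

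CCNL1 and CCNL2 encode L cyclins, which partner CDK11 in splicing. CCNL1 (chromosome 3, 157146508 to 157160760) had 20.3 and 18.6 CPM in the controls against 38.3 and 41.9 CPM with siAARS1, a rise of 1.01 (SE 0.0708, adjusted p = 3.68e-11). At 0.71, it had the highest corrected value of the members. CCNL2 had 133 and 132 CPM without and 157 and 149 CPM with the knockdown. It rose by 0.20 (adjusted p = 0.000203), which was 0.48 after the correction and an uncalled -0.03 after median scaling.

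CDK12 and CDK13 phosphorylate RNA polymerase II with cyclin K. CDK12 had 47.8 and 52.4 CPM in the control pair and 83.9 and 86.2 CPM in the siAARS1 pair, a rise of 0.75 (adjusted p = 3.28e-11) with an uncalled 0.06 after the correction. CDK13 had 81.9 and 85.1 CPM in the controls against 95 and 101 CPM with siAARS1. It rose by 0.23 (adjusted p = 0.000195), was 0.00 after median scaling and turned to -0.46 after the correction, past the threshold. CCNK itself was at 71.9 ± 0.441 and 70.2 ± 1.54 CPM, an uncalled difference of -0.03 that was called after the correction (0.13) and after quantile normalization (-0.12), and CCDC85C exons cover 59.5% of its exon bases on the opposite strand.

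CDK8, CDK19 and their cyclin CCNC belong to the kinase module of Mediator. CDK8 had 19.7 and 21.4 CPM without and 22.6 and 26.1 CPM with the knockdown. Its rise of 0.23 (adjusted p = 0.0141) was not called after median scaling (0.01), after quantile normalization (0.0080), after the correction (0.08), or without control replicate 1 (0.17) or siAARS1 replicate 2 (0.13). CDK19 had 8.30 and 8.89 CPM in the control pair and 12.8 and 15.3 CPM in the siAARS1 pair, a rise of 0.64 (adjusted p = 9.23e-06) with an uncalled -0.04 after the correction. CCNC rose from 27.2 ± 0.808 to 37.1 ± 1.18 CPM, by 0.43 (adjusted p = 3.61e-06), and turned to -0.24, past the threshold, after the correction. CDK7 and CCNH form the CDK-activating kinase, which is also part of TFIIH, and both rose, by 0.30 (adjusted p = 0.000935) and 0.46 (adjusted p = 3.56e-06). CCNH kept 0.34 after the correction, while CDK7 had an uncalled -0.06 there and was not called after median scaling (0.08) or quantile normalization (0.09).

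The 13 other members held 4 that rose, 6 that fell and 3 not called (CDK3, CDK10 and CDK20), with a median of -0.13. Of all genes 32.6% rose and 38% fell. CCNG1, a p53 target that recruits a phosphatase, had 51.8 and 55.3 CPM in the controls against 82.4 and 90.4 CPM with siAARS1, a rise of 0.68 (adjusted p = 2.65e-10) with an uncalled -0.05 after the correction. CCNG2, its paralog, is known as a cyclin of quiescent cells. It had 12 and 14.1 CPM without and 10.8 and 10.3 CPM with the knockdown, a change of -0.28 (adjusted p = 0.0148) that was not called without control replicate 2 (-0.18) or siAARS1 replicate 2 (-0.25). After the correction CCNG2 had -1.16 (adjusted p = 6.91e-09), next to CDKN2B the lowest value of the members. CCNJ had 11.3 and 10.2 CPM in the control pair and 17.3 and 19.4 CPM in the siAARS1 pair, and it rose by 0.72 (adjusted p = 4.87e-07), with a corrected value of 0.29.

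Among the kinases of this group, CDK14 and CDK17 rose, by 0.65 and 0.60, and had -0.17 (called) and -0.11 (not called) after the correction. CDK14 is a partner of cyclin Y in Wnt signalling. CDK16, another partner of cyclin Y, fell from 136 ± 0.573 to 89.8 ± 4.96 CPM, a change of -0.60 (adjusted p = 1.44e-10) and of -0.27 when corrected. CCNY itself fell by 0.20 (adjusted p = 0.00240), and the corrected value was -0.66. CDK5, a kinase best known from neurons, fell by 0.49 (adjusted p = 3.42e-07), with a corrected value of -0.17. CDK18 fell by 0.30, against an uncalled 0.04 after the correction. CCNI fell by 0.13 (adjusted p = 0.00485), which was not called without control replicate 2 (-0.09) or siAARS1 replicate 1 (-0.10), and had a corrected value of -0.31. CDK10 had an uncalled -0.07 that was called after the correction (0.27) and after quantile normalization (-0.21). CDK3 and CDK20 had uncalled differences of 0.02 and -0.14, on control means of 4.35 and 3.98 CPM, and uncalled corrected values of 0.29 and 0.11. TEN1-CDK3, a readthrough transcript, covers 91.2% of the exon bases of CDK3, so that value may hold reads of both.

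Ratios within a library remove the scaling of that library. The ratio of CCNE2 to CCNE1 CPM was 0.436 and 0.489 in control and 1.98 and 2.17 in siAARS1 libraries, a change of order on the CPM scale, which is not per length. CDK6 to CDK4 went from 0.0483 and 0.0437 to 0.153 and 0.154. Among the pairs chosen for this comparison, CCNT2 to CDK9 moved most on the deposited scale. It was at 0.113 and 0.144 in control and 0.668 and 0.711 in siAARS1 libraries, and CCNT1 to CDK9 was at 0.319 and 0.371 against 1.15 and 1.26. With 2 libraries against 2, an exact two-sided permutation test of a ratio cannot go below p = 0.333, so no test is given. Partners of a pair often differed in GC content, and the difference of their log2 fold changes moved with the correction, from 2.33 to 0.56 for CCNT2 and CDK9, from 1.63 to 0.07 for CDK6 and CDK4 and from 2.0 to 0.79 for CCNE2 and CCNE1. It held for CDK12 and CDK13 (0.52 and 0.53) and for CCNG1 and CCNG2 (0.96 and 1.11), and it grew for CDKN2A and CDKN2B (0.44 and 1.08).

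**Figure D4:**
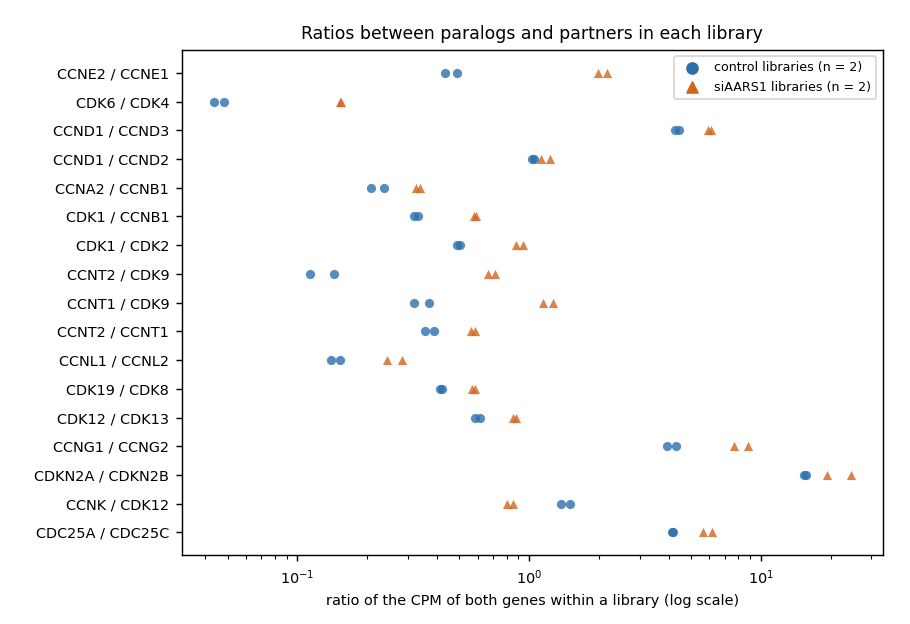
Ratio of the CPM of both genes of a pair within each library (log axis), for pairs of paralogs or partners, with circles for the 2 control and triangles for the 2 siAARS1 libraries. The groups are apart in each pair, and CCNT2 to CDK9 and CCNE2 to CCNE1 show the widest gaps.

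Regulators and targets of CDKs, 82 genes that hold no member, were examined next. Of these, 78 were listed and tested, and 35 rose, 20 fell and 23 were not called (of all genes, 32.6% rose and 38% fell), with a median of 0.08. The split was 26 higher and 39 lower after median scaling (23.8% and 56.3% of all genes). After quantile normalization it was 34 and 30 (3984 and 6776 of all 14199 genes), and in DESeq2 35 and 10 (4499 and 3856). After the correction 36 of 77 were higher and 17 lower (32.8% and 33.3% of all genes). Change and GC content had a rank correlation of -0.74 here too (77 genes). The genes of the pocket proteins, RB1, RBL1 and RBL2, rose, of which RBL2 (0.51) had an uncalled -0.02 after the correction. RB1, the retinoblastoma protein gene and the substrate of CDK4 and CDK6, had 22.5 and 23.6 CPM in the controls against 64.8 and 66.6 CPM with siAARS1, a rise of 1.47 (SE 0.0586, adjusted p = 1.78e-15) that was 0.26 after the correction. RBL1, which encodes p107, had 8.45 and 8.92 CPM without and 27.5 and 29 CPM with the knockdown, a rise of 1.60 that was 0.55 after the correction. E2F1, a transcription factor that RB1 restrains, had 62.9 and 68.7 CPM in the control pair and 63.5 and 68.0 CPM in the siAARS1 pair. It showed no difference past the threshold (-0.00, 95% interval -0.11 to 0.11), and was -0.23 after median scaling and 0.36 after the correction, called in both.

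LARP7 had the largest change of the list. It encodes a protein that binds and stabilises 7SK RNA, the scaffold of the complex in which HEXIM proteins hold P-TEFb inactive. It had 3.31 and 4.85 CPM in the controls against 21.9 and 20.9 CPM with siAARS1. The rise of 2.16 (SE 0.121, adjusted p = 6.99e-13) was still 1.59 after the correction. The HEXIM genes did not rise. HEXIM1 fell by 0.14 (adjusted p = 0.0141), and HEXIM2 had an uncalled -0.14, with uncalled corrected values of -0.09 and 0.17. MEPCE, also on the list, rose by 0.26, which was 0.61 after the correction and an uncalled 0.04 after median scaling. PLK4, the kinase of centriole duplication, had 8.89 and 8.48 CPM without and 35.6 and 38.9 CPM with the knockdown, a rise of 1.98 (adjusted p = 2.55e-15) and of 1.03 after the correction. LIN9, a MuvB subunit, had 6.60 and 8.32 CPM in the control pair and 22.4 and 27.2 CPM in the siAARS1 pair, a rise of 1.61 with a corrected value of 0.96. CDC27, a subunit of the anaphase promoting complex, had 28.6 and 29.2 CPM in the controls against 89.5 and 95.7 CPM with siAARS1, and its rise of 1.65 was 0.15 after the correction. MYBL1 had 4.49 and 5.93 CPM without and 13.5 and 14.2 CPM with the knockdown, a rise of 1.27 with an uncalled 0.07 after the correction.

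The other regulators picked by name had smaller differences on the deposited scale. FOXM1, a transcription factor of G2 and M phase genes, had 194 and 188 CPM in the control pair and 187 and 179 CPM in the siAARS1 pair, an uncalled -0.06 (adjusted p = 0.171). MYBL2, which activates the same genes, had 247 and 250.3 CPM in the controls against 239 and 225 CPM with siAARS1, a change of -0.10 (adjusted p = 0.0297) that was not called without control replicate 1 (-0.11), control replicate 2 (-0.09) or siAARS1 replicate 2 (-0.06), or after quantile normalization (-0.08). CDC20, an activator of the anaphase promoting complex, had 463 and 456 CPM without and 388 and 367 CPM with the knockdown, a change of -0.28 (adjusted p = 6.75e-07). WEE1, the kinase that opposes CDC25, had 46.2 and 51.4 CPM in the control pair and 49.1 and 53.5 CPM in the siAARS1 pair, an uncalled 0.07. SKP2, which targets p27 for degradation, had 103 and 105 CPM in the controls against 132 and 136 CPM with siAARS1, a rise of 0.36 (adjusted p = 1.61e-07). After the correction these were 0.17 for FOXM1, 0.24 for MYBL2, 0.25 for WEE1 and -0.34 for SKP2, all called, and an uncalled 0.04 for CDC20. WEE1 was -0.15 and called after median scaling.

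**Figure D5:**
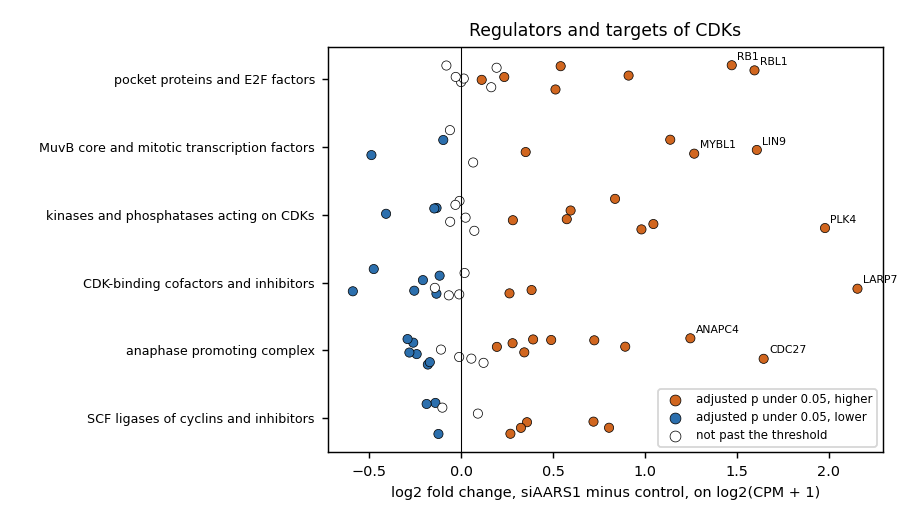
Log2 fold change (siAARS1 minus control, on log2(CPM + 1)) of the 78 listed regulators and targets of CDKs in 6 groups, filled orange or blue where higher or lower at an adjusted p under 0.05 and open where not. LARP7, PLK4, CDC27, LIN9 and RBL1 lie above 1.5, and no gene lies as far below 0.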

How the data were processed

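RNA-seq of 4 HGC27 libraries was used, 2 control and 2 siAARS1, grouped by sample title. The authors deposited CPM for 14431 genes, with RSEM 1.3.3 and hg38 named in the submitters' processing notes, and the aligner, annotation and use of strand not given in the sources used here. Columns of the authors' own comparison (fold changes and p-values) were not used. All values (100%) were whole multiples of 1 read within 0.001 CPM, although RSEM gives estimated counts, and the size behind the CPM was 0.749% to 1.89% above the listed totals. CPM is not corrected for length or GC content. A count of 3 reads, the limit for 0 reads, was 0.0880 to 0.0971 CPM, for counting error only. Between replicates the chi-square per gene was 3.62 (control) and 3.60 (siAARS1), above sampling noise.

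The 14199 genes whose mean reached 1 CPM in either group were tested on log2(CPM + 1) with limma 3.58.1 (R 4.3.3, trend, no covariates, 2 residual degrees of freedom). Two-sided p-values were adjusted by Benjamini-Hochberg over this whole set and called under 0.05. This scale understates changes of low genes. An alternative took out the smooth trend of each library against transcript GC content and length (mgcv 1.9.3, GENCODE v29 transcripts, 97.2% of listed genes and all 49 members). On the recovered reads, edgeR 4.0.16 called 9806 genes with TMM and 9960 with library size only, and DESeq2 1.42.0 called 8355, against 10032 in limma. Other alternatives were no filter, a pseudocount of 0.1, median scaling, quantile normalization, a threshold of 0.01, a block for the replicate number and fits without each library in turn. The limma steps were tested on simulated data.

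The members and gene lists were chosen with earlier results of these data known. By the rule for named genes, values in every library were given for members of the division cycle, inhibitors, CDC25 genes, 5 paralog pairs and the 5 members of the remaining roles with the largest called change, for 7 regulators picked by name and for the 6 others with the largest called change. The other 15 members, which the rule gives by count and range (control means of 3.98 to 277 CPM), were all given by their change. Coordinates come from GENCODE v29 (GRCh38) and may differ from the annotation of the authors.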

Additional observations from a re-analysis of the deposited data

How the results depend on the processing

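The counts of called genes stayed within 1.5 times the main count in all alternatives, at 33 to 44 members (40 in the main test), 45 to 65 regulators (55) and 8355 to 11378 genes of the table (10032). Leaving out 1 library gave 35 to 38 members, 49 to 51 regulators and 8908 to 9283 genes, where the lone library of a group is assumed to vary like the other group. Median scaling moved the share of higher among called genes from 46.2% to 29.7%, that of members from 50% to 34.1% and that of regulators from 63.6% to 40%. The share for regulators was 53.1% after quantile normalization and 77.8% in DESeq2, against 37.0% and 53.8% for all genes.

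Of 64 members and named genes, median scaling turned the direction of CDK4 (-0.13), CDC25A (-0.17), CDKN1B (-0.20), CCNL2 (-0.027) and WEE1 (-0.15). CDK3 (-0.16) changed sign with it too, uncalled before and after. In these libraries that scaling lowered siAARS1 values relative to control. The median of all genes was -0.26 with it, against -0.05 in the main test, -0.02 in edgeR with TMM and -0.005 in DESeq2. Members split into 20 higher and 18 lower in edgeR with TMM, and 20 and 15 in DESeq2. Of all called genes, 50.3% were higher in edgeR with TMM and 53.8% in DESeq2, against 52.6% and 57.1% of called members. The GC content and length correction turned CCNF (0.062), CDKN2C (0.21), CDK19 (-0.045), CDK13 (-0.46), CCNG1 (-0.046), CDK7 (-0.056), CCNC (-0.24), CCNK (0.13), CDK10 (0.27), CDK14 (-0.17), CDK17 (-0.11), CDK18 (0.045), E2F1 (0.36), FOXM1 (0.17), MYBL2 (0.24), SKP2 (-0.34) and CDC20 (0.041), with the same values in the fit with the replicate block, and whether composition or biology sets this trend was not tested. CCND1 (0.035), CDK2 (0.022) and CDK20 (0.11) also changed sign after the GC content and length correction, uncalled before and after. No other alternative turned a direction among those called. Median scaling also called as lower CCND1 (-0.31), CDK2 (-0.31), CCNB1 (-0.27), CCNK (-0.26), CDK10 (-0.29), CDK20 (-0.32), E2F1 (-0.23) and FOXM1 (-0.29), and DESeq2 did not call CCNB2 (-0.06), CDKN2C (-0.05), CCNG2 (-0.26), CCNI (-0.08), CCNY (-0.16) and MYBL2 (-0.05). Quantile normalization ended the calls of CDK7 (0.087), CDK8 (0.0080) and MYBL2 (-0.079) and called as lower CCND1 (-0.082), CDK2 (-0.095), CCNK (-0.12) and CDK10 (-0.21). In edgeR with TMM the calls of CCNB2 (-0.075), CDKN2C (-0.065) and MYBL2 (-0.060) were lost, and CDKN2C also lost its call with no filter, a pseudocount of 0.1 and edgeR with library size only (each -0.10).

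Replicate numbers are shared by the groups and the labels state no pairing. Deviations of same-numbered libraries had a correlation of 0.118, from 2 pairs only, which cannot settle whether they are pairs. The main test did not use the numbers as pairs, and the replicate block was an alternative that did. The replicate block called 10389 genes, 40 members and 58 regulators and changed no call among the 64 named genes. CDK4, CCNB2, CDKN2C, CDK8, CCNG2, CCNI and MYBL2 lost their call without at least 1 library, as given beside each gene. The depth of at least 30653210 reads limits mainly CDKN1C, which had 18 to 66 reads.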
